A study of Mus musculus with 6 samples.

Results

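The complement system genes are 34 genes that encode the components, regulators and receptors of complement, and they were taken from the liver count table by matching its Ensembl identifiers to a listed set of symbols in a GENCODE annotation of GRCm39. All 34 were found among the 55357 genes of the table, and the matching rule uses no expression value. Liver RNA came from WT C57BL6/J male mice, 8 to 9 weeks old, that received vehicle (2.5% Tween-80) or esculetin, a coumarin derivative, by oral gavage for 7 days. Both groups ate a control diet (10% of kcal as fat) over the initial 4 days and then a high-fat diet (HFD, 60% of kcal as fat) over 3 days, so neither group stayed on the control diet throughout. Each group had 3 libraries, and each library was made from the pooled livers of 2 mice. For these libraries the sample titles and protocol name 180 mg/kg/d of esculetin while the treatment field names 90 mg/kg/d, and the group is therefore called esculetin without a dose. The comparison asks how liver complement transcripts differed between esculetin-treated and vehicle-treated mice during a short period of lipid-rich feeding.

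Complement is a cascade of plasma proteins, most of them made by hepatocytes, that tags microbes and damaged cells for removal. The classical pathway starts with C1q bound to antibody, the lectin pathway with collectins and ficolins bound to sugars, and the alternative pathway with slow spontaneous activation of C3, and all of these routes cleave C3. Cleavage of C5 then starts the terminal pathway, in which C6, C7, C8 and C9 assemble into a membrane pore, while soluble and membrane-bound regulators hold the cascade in check.

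The total counts of the libraries lay between 27957713 and 34920922, with the 3 esculetin libraries deeper than the 3 vehicle libraries. A count of 3 equalled 0.0864 to 0.109 CPM, the unit used here for counts scaled to the effective library size. A test on 14433 genes with edgeR's quasi-likelihood method included all 34 complement genes. The tissue label fitted the markers, since the summed level of 7 hepatocyte markers lay between 81809.6 and 84849 CPM in the vehicle libraries and between 78564 and 85947 CPM in the esculetin libraries. Together the 34 complement genes took 1.78%, 1.98% and 2.09% of all counts in vehicle libraries 1, 2 and 3, and 2.12%, 1.76% and 2.02% in esculetin libraries 1, 2 and 3, so their total share overlapped between the groups.

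The complement genes did not move as a block between the groups. Of the 34 genes, 3 passed an unadjusted p-value under 0.05 with higher levels in the esculetin group (Mbl2, C8g and Cfd). This is 8.82% of the complement genes, where 6.53% of all genes tested passed in that direction. Another 2 genes, C6 and C8b, passed with lower levels, which is 5.88% of the complement genes against 5.32% of all genes tested. Both shares were near the background. With a fold change over 1.5 in addition, C6 and Cfd remained, 5.88% of the complement genes against 3.13% of all genes tested. Cfd entered the test only through its counts in the esculetin group, and at a minimum of 10 counts in every library C6 was the 1 gene left. No complement gene had a Benjamini-Hochberg adjusted p-value under 0.05 in edgeR, a level that 6 of all genes tested (0.0416%) reached. DESeq2, run on the same counts, gave an adjusted p-value under 0.05 to 2 complement genes, Mbl2 and C6, and to 1.34% of all genes tested. Without a filter on low counts, edgeR gave such a value to 3 complement genes (Mbl2, C6 and C8b) and to 1.94% of all genes tested.

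The median log2 fold change of the 34 genes was -0.0086, beside -0.0080 for all genes tested, and 16 of the 34 values were positive and 18 negative. The values ran from -0.74 for C6 to 1.72 for Cfd. In 3 genes (Mbl2, C8g and Cfd) every esculetin library lay above every vehicle library, which is 8.82% of the complement genes against 9.2% of all genes tested. Cfd is in this count only because its esculetin libraries met the expression filter. In 2 genes (C6 and Masp1) every esculetin library lay below every vehicle library, which is 5.88% against 8.24%. The plot of log2 fold changes by role shows these genes beside the others.

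**Figure D1:**
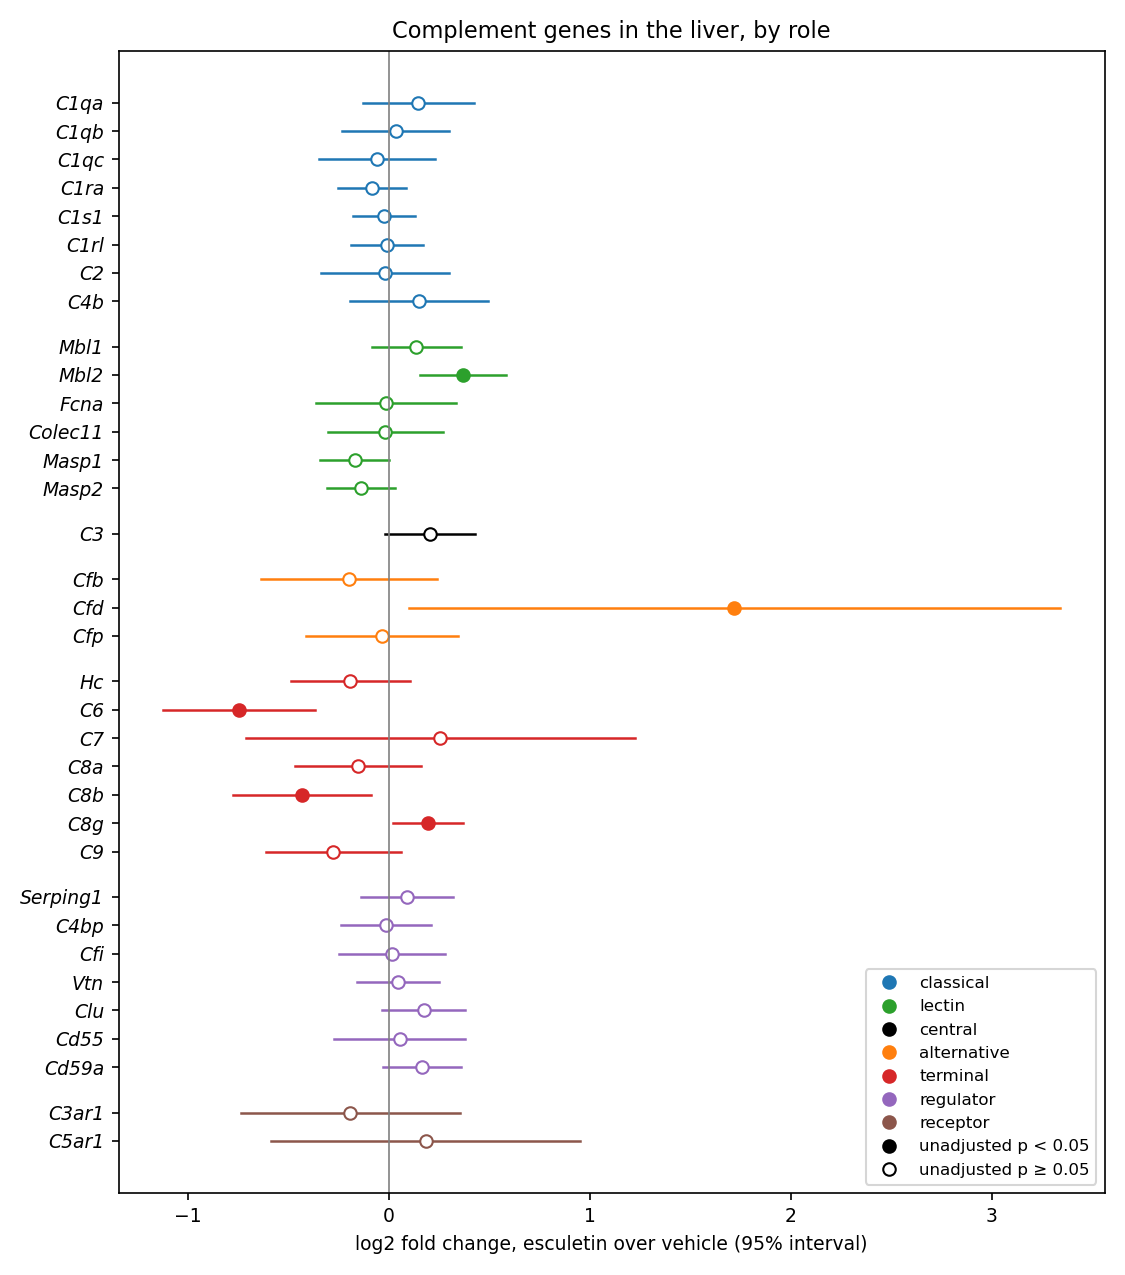
Log2 fold change of each of the 34 complement genes, esculetin over vehicle (x axis), grouped by role, with the 95% interval of edgeR's quasi-likelihood fit as a line (n = 3 libraries per group). Filled points mark unadjusted p-values under 0.05, which are Mbl2, Cfd and C8g on the higher side and C6 and C8b on the lower side.

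Levels can be compared between genes only per transcript length, and here they are given as RPKM, the CPM divided by the length in kilobases of the canonical transcript. In the vehicle libraries the highest levels belonged to Vtn (vitronectin, which blocks membrane insertion of the terminal complex) at 1115 ± 67.6 RPKM, C3 at 965 ± 44.8 RPKM and Clu (clusterin, another fluid-phase inhibitor of the terminal complex) at 714 ± 64.6 RPKM (mean ± SD, n = 3). C9, the pore-forming subunit, followed at 690 ± 161 RPKM, and the difference from Clu was smaller than the spread of C9. Serping1 (C1 inhibitor) came next at 398 ± 35.8 RPKM. This order depends on the length chosen, because with the length of all annotated exons of a gene C3 came first at 960.2 RPKM, followed by Vtn at 616 RPKM and C9 at 493 RPKM, and Clu fell to rank 7 at 230.2 RPKM. The lowest were C7 at 0.132 ± 0.0379 RPKM, Cfd at 0.304 ± 0.328 RPKM, C5ar1 at 0.350 ± 0.0569 RPKM and C3ar1 at 0.642 ± 0.198 RPKM. These 4 genes encode a terminal component, a protease known from adipose tissue, and the anaphylatoxin receptors carried mainly by myeloid cells. The order of Cfd and C5ar1 was within the spread of Cfd. C7 was the exception in the terminal pathway, since C6, C8a, C8b, C8g, C9 and Hc lay between 145 RPKM (C6) and 690 RPKM (C9).

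**Figure D2:**
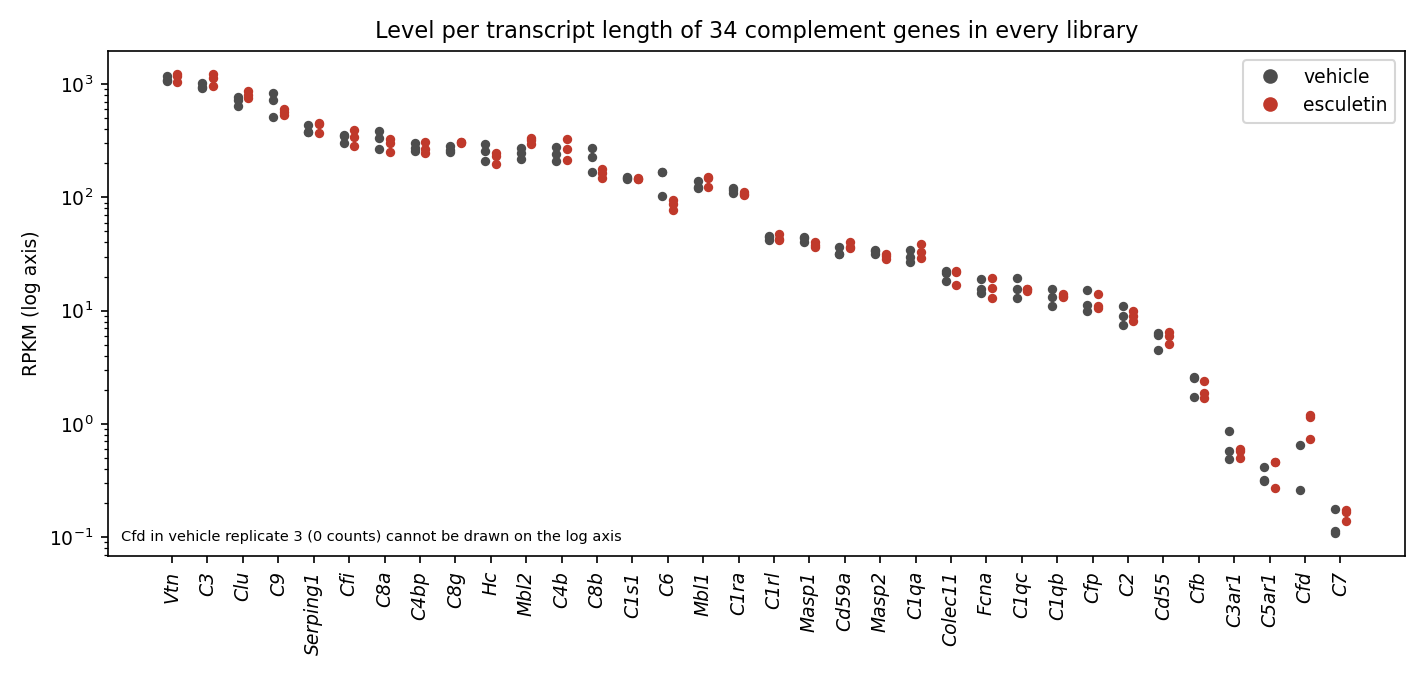
RPKM (log axis) of the 34 complement genes in every library, 3 vehicle (grey) and 3 esculetin (red), ordered by the vehicle mean. Levels ran from Vtn at 1115 RPKM to C7 at 0.132 RPKM in the vehicle mean, and Cfd in vehicle replicate 3, with 0 counts, is not drawn.

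The terminal pathway held the complement genes with the most marked lower levels. C6 (ENSMUSG00000022181, chr15:4756525-4844580, plus strand) encodes the component that joins C5b at the start of pore assembly. Its levels in vehicle libraries 1, 2 and 3 were 309.9, 499 and 500.1 CPM, and those in esculetin libraries 1, 2 and 3 were 264, 287 and 232 CPM. Every esculetin library was lower than every vehicle library, and vehicle library 1 stood closer to the esculetin libraries than to the other vehicle libraries. The means were 436 ± 109.5 CPM with vehicle and 261 ± 27.3 CPM with esculetin (SD, n = 3), a log2 fold change of -0.74 (SE 0.169, unadjusted p = 0.00145, adjusted p = 0.16, edgeR). C6 passed the unadjusted threshold under all 8 alternatives that used all 6 libraries and under all 6 that left out 1 library, with log2 fold changes between -0.94 and -0.63 in the latter.

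C8b (ENSMUSG00000029656, chr4:104623328-104662573, plus strand) encodes the beta chain of C8. Its levels were 515, 693 and 834 CPM in the vehicle libraries and 548, 461 and 507 CPM in the esculetin libraries. The groups overlapped, because vehicle library 1 lay below esculetin library 1. This gave a log2 fold change of -0.43 (SE 0.153, unadjusted p = 0.0191, adjusted p = 0.32, edgeR). In the 6 fits that left out 1 library, the log2 fold change ran from -0.60 without vehicle library 1 to -0.26 without vehicle library 3. The unadjusted p-value was 0.000385 without vehicle library 1. It was 0.0866 without vehicle library 3, 0.0523 without vehicle library 2 and 0.0689 without esculetin library 2.

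C8g (ENSMUSG00000015083, chr2:25388657-25391771, minus strand), which encodes the gamma chain of C8, a lipocalin, differed in the opposite direction. Its levels were 287, 304 and 329 CPM in the vehicle libraries and 346, 356 and 354 CPM in the esculetin libraries. All 3 esculetin libraries lay above the vehicle libraries and close to each other. The log2 fold change was 0.20 (SE 0.0776, unadjusted p = 0.0301, adjusted p = 0.36, edgeR). Without vehicle library 1 the p-value was 0.0972, and it was above 0.05 in 4 of the 6 fits that left out 1 library. The log2 fold change of C8g ran from 0.15 to 0.25 in these 6 fits. A stretch of 12.3% of its exon bases is shared with Fbxw5 on the opposite strand, and strand use in the counting is not given in the sources used here.

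C9, Hc and C8a gave negative values that did not pass, and C7 did not pass either. C9 lay at 1058, 1473 and 1709.8 CPM in the vehicle libraries and at 1244, 1098 and 1163 CPM in the esculetin libraries. Vehicle library 1 was again the lowest of all 6, and vehicle libraries 2 and 3 were above every esculetin library. The log2 fold change of C9 was -0.28 (95% interval -0.61 to 0.06, unadjusted p = 0.0987). Without the filter on low counts it was -0.26 (unadjusted p = 0.00688). Hc, the gene of C5, had a log2 fold change of -0.19 (-0.49 to 0.10) and C8a, the alpha chain of C8, one of -0.15 (-0.46 to 0.16). C7 was near the detection limit, at 0.358 ± 0.103 CPM with vehicle and 0.429 ± 0.0484 CPM with esculetin.

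Vehicle library 1 had the lowest vehicle level of Hc, C6, C8a, C8b, C8g and C9, and vehicle library 3 the highest of each. This held for 22 of the 34 complement genes (64.7%), among them C3, C4b, C1qb and C1qc, and for 17.9% of all genes tested. It also held for 15 of 16 acute phase proteins, with these examples chosen after their values were seen, Saa1 (serum amyloid A1) at 44.9, 125 and 218 CPM and Hp (haptoglobin) at 2490.2, 2894 and 3243 CPM in vehicle libraries 1, 2 and 3. The part of this spread in the complement values was not tested. The fit without vehicle library 1 gave 6 complement genes with an unadjusted p-value under 0.05 and lower levels (C6, C8a, C8b, C9, Hc and Masp1), where 4.36% of all genes tested passed in that direction. In that fit the log2 fold change of C9 was -0.45 (unadjusted p = 0.00129), that of Hc was -0.31 (unadjusted p = 0.0229) and that of C8a was -0.28 (unadjusted p = 0.0440). Without vehicle library 3 the edgeR values were -0.11 for C9 (unadjusted p = 0.425), -0.06 for Hc (unadjusted p = 0.629) and -0.02 for C8a (unadjusted p = 0.886). C6 alone passed on the lower side without vehicle library 2, without vehicle library 3 and without esculetin library 2. The number of terminal genes on the lower side thus rested on single libraries. The plot of the terminal genes in every library shows the parallel course of the vehicle libraries and the separate position of C8g.

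**Figure D3:**
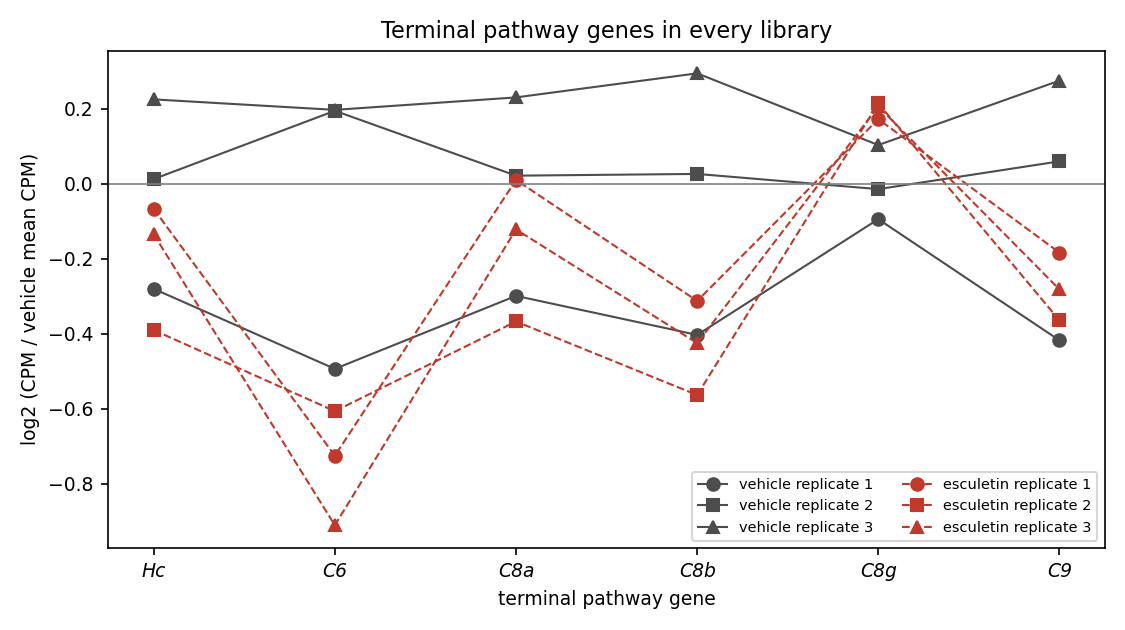
Level of 6 terminal pathway genes in each library, as log2 of the CPM over the vehicle mean CPM (y axis), with a line per library (vehicle grey and solid, esculetin red and dashed). Vehicle replicate 1 lies below vehicle replicates 2 and 3 at each gene, and the esculetin libraries lie lowest at C6 and highest at C8g. C7 is left out because of its low level.

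The 3 chains of C8 are secreted as one protein, and their counts were compared within each library, where depth cancels. The ratio of C8g to C8b counts was 0.558, 0.438 and 0.395 in the vehicle libraries and 0.631, 0.773 and 0.698 in the esculetin libraries. All 3 esculetin ratios were above all vehicle ratios (0.464 ± 0.0846 against 0.701 ± 0.0709, SD, n = 3, exact two-sided permutation test p = 0.1, adjusted p = 0.233 over 7 ratios). The ratio of C8a to C8b counts was also higher in every esculetin library, at 2.12 ± 0.0988 against 1.77 ± 0.105 with vehicle (exact permutation p = 0.1). Outside C8, the ratio of C1qb to C1qc counts was equally separated, at 1.21 ± 0.0318 with esculetin and 1.14 ± 0.0351 with vehicle (exact permutation p = 0.1), and the other 4 ratios overlapped between the groups. With 3 libraries against 3, 0.1 is the smallest p-value this test allows. C8a and C8b lie next to each other on chromosome 4 in opposite orientation, and C8g is on chromosome 2.

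The study concerns C/EBPβ, a transcription factor that binds acute-phase promoters, and its gene Cebpb was higher in the esculetin libraries (24.9, 35.6 and 30.2 CPM with vehicle, and 53.7, 43.4 and 40.3 CPM with esculetin). Its log2 fold change was 0.60 (SE 0.144, unadjusted p = 0.00211, adjusted p = 0.18, edgeR), and the groups did not overlap. The 250 bases before the canonical transcription start were therefore searched on both strands for the C/EBP letters TTGCNNAA and the STAT letters TTCNNNGAA. The C/EBP letters were present in 6 of the 34 complement genes (C1ra, C1s1, C1rl, C3, C6 and C9, 17.6%) and in 8.32% of 12590 promoters of protein-coding genes tested. The STAT letters were present in 5 of the 34 (C1qa, Colec11, Masp2, C7 and C8a, 14.7%) and in 6.72% of all these promoters. No promoter of a complement gene held both. A match is a run of letters and not a measured binding site.

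The sequences shown are those of the 2 genes with the smallest p-values (C6 and Mbl2), of C8b, and of C9 and C3, the most abundant terminal gene and the central component, in the GRCm39 build and 5′ to 3′ on the strand of the gene, with a C/EBP match in capitals. They lie at chr15:4756275-4756524 (plus), chr15:6474558-6474807 (plus), chr4:104623256-104623505 (plus), chr17:57535156-57535405 (minus) and chr19:30210062-30210311 (plus).
C6: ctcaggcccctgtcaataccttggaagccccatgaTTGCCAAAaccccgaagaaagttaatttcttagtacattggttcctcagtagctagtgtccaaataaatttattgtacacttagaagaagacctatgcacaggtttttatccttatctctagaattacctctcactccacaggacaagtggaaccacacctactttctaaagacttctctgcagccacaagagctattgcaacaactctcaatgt
C9: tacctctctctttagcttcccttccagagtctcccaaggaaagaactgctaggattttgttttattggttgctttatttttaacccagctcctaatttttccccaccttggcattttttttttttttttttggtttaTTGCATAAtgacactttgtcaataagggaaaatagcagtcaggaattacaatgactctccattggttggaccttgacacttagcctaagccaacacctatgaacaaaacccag
C8b: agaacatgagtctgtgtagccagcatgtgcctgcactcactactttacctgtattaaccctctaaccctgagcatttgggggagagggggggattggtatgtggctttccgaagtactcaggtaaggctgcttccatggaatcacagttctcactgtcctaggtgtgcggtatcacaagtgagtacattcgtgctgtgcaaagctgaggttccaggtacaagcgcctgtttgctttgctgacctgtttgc
C3: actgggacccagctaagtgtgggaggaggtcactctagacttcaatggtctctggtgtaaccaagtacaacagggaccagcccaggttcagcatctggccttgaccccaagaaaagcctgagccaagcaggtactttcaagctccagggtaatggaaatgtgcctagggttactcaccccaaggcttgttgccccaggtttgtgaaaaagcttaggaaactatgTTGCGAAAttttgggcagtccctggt
Mbl2: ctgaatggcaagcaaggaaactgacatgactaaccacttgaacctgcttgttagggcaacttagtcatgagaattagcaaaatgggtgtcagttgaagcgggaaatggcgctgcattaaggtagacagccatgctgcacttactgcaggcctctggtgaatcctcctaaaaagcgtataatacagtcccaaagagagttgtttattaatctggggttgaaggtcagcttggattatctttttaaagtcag
The match starts 215 bases before the start of C6, 113 bases before that of C9 and 26 bases before that of C3. C8b and Mbl2 hold neither motif in this window. Matched promoters thus belonged to C6, which was lower with esculetin, to C9 and C3, which did not pass the test, and to C1ra, C1s1 and C1rl, whose log2 fold changes were -0.08, -0.02 and -0.01.

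In the lectin pathway, 1 of 6 genes passed the unadjusted threshold, beside 11.9% of all genes tested in either direction, so the count says nothing about the pathway. Mbl2 (ENSMUSG00000024863, chr19:30210312-30217496, plus strand) encodes mannose-binding lectin C, a collectin that binds microbial sugars. Its levels were 416, 335 and 376 CPM in the vehicle libraries and 489.8, 453 and 513 CPM in the esculetin libraries. Every esculetin library exceeded every vehicle library. Mbl2 had a log2 fold change of 0.37 (SE 0.0959, unadjusted p = 0.00332, adjusted p = 0.20, edgeR), a 1.29-fold difference. Mbl2 passed the unadjusted threshold under all 8 alternatives with all 6 libraries and all 6 that left out 1 library (log2 fold change 0.30 to 0.45 in the latter). Its paralogue Mbl1, which encodes mannose-binding lectin A, had a log2 fold change of 0.14 (95% interval -0.08 to 0.36). The ratio of Mbl2 to Mbl1 counts was 1.87 ± 0.238 with vehicle and 2.19 ± 0.149 with esculetin, and the groups overlapped (exact permutation p = 0.2).

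Masp1 and Masp2, which encode the serine proteases that these lectins carry, did not pass. Masp1 (ENSMUSG00000022887, chr16:23268167-23339779, minus strand) stood at 216, 235 and 237 CPM in the vehicle libraries and at 214, 204 and 195 CPM in the esculetin libraries. The groups did not overlap, but vehicle library 1 and esculetin library 1 were close. The log2 fold change was -0.17 (SE 0.0763, unadjusted p = 0.0523, adjusted p = 0.43, edgeR). Masp1 passed in 3 of the 8 alternatives with all 6 libraries (p between 0.0290 with total counts and 0.0953 with the replicate block) and in 2 of the 6 fits that left out 1 library (p between 0.0315 and 0.156). Masp2, the protease that cleaves C4 and C2, had a log2 fold change of -0.14 (-0.30 to 0.03), and 60.3% of its exon bases are shared with Tardbp on the opposite strand. Fcna (ficolin A, a lectin of macrophages) and Colec11 (collectin 11) had log2 fold changes of -0.01 (-0.36 to 0.34) and -0.02 (-0.30 to 0.27).

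**Figure D4:**
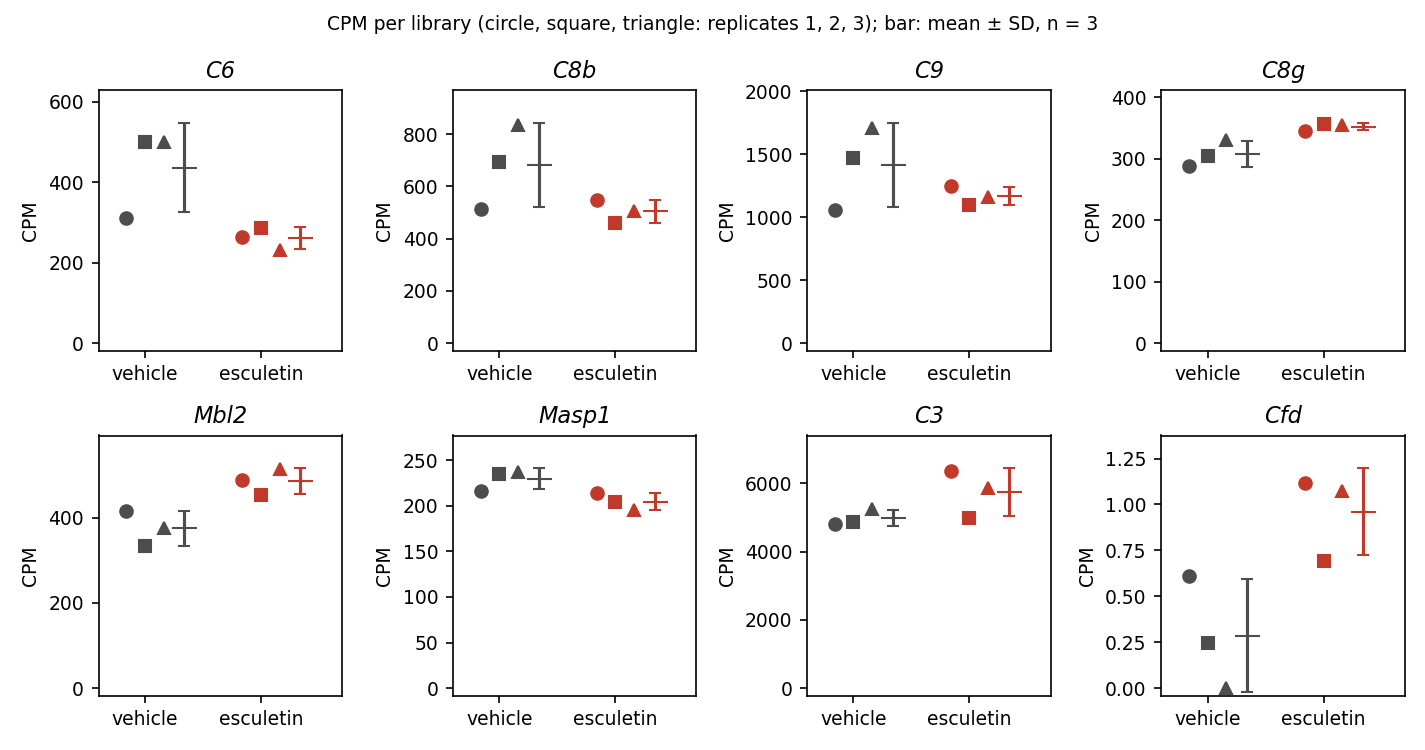
CPM (y axis, including 0) of 8 complement genes in each vehicle (grey) and esculetin (red) library, with mean ± SD as a bar (n = 3). C6 and Masp1 are lower, and C8g, Mbl2 and Cfd higher, in every esculetin library than in every vehicle library, while C8b, C9 and C3 overlap.

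C3 (ENSMUSG00000024164, chr17:57510964-57535155, minus strand), the component on which all pathways converge, took the largest share of the complement counts, 24.6% to 27.5% in the vehicle libraries and 28.2% to 29.4% in the esculetin libraries. Its levels were 4820.2, 4867 and 5242 CPM with vehicle and 6365, 4993 and 5865 CPM with esculetin. Esculetin libraries 1 and 3 were above all vehicle libraries, and esculetin library 2 lay within their range. The log2 fold change was 0.21 (SE 0.101, unadjusted p = 0.0684, adjusted p = 0.46, edgeR). Of the 8 alternatives with all 6 libraries, C3 passed in 1. This was edgeR without the filter on low counts (unadjusted p = 0.0112), and the highest unadjusted p-value was 0.0935, with the replicate block. It passed in 1 of the 6 fits that left out 1 library, in which the log2 fold change ran from 0.13 without esculetin library 1 (unadjusted p = 0.247) to 0.30 without esculetin library 2 (unadjusted p = 0.0108).

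None of the 8 classical pathway genes passed. C1qa, C1qb and C1qc, which encode the 3 chains of C1q and in liver come mainly from Kupffer cells, had log2 fold changes of 0.15 (95% interval -0.13 to 0.42), 0.04 (-0.23 to 0.30) and -0.06 (-0.35 to 0.23). The 3 genes lie side by side on the minus strand of chromosome 4. C1qc was 24.1, 28.9 and 35.8 CPM in the vehicle libraries and 29.0, 27.5 and 28.7 CPM in the esculetin libraries, so the vehicle libraries spanned the esculetin ones. Of 8 Kupffer cell and macrophage markers, 1 passed the unadjusted threshold, beside 5.32% of all genes tested on the lower side. It was the lysosomal protein gene Cd68, which was lower (log2 fold change -0.37, unadjusted p = 0.0225). Of the 8 markers 7 had negative values (median log2 fold change -0.11), beside 7440 of 14433 genes tested. Every esculetin library lay below every vehicle library for Cd68, Csf1r and Timd4, beside 8.24% of all genes tested. The summed level of the 8 markers was 308 to 411 CPM with vehicle and 316 to 324 CPM with esculetin. Its part in the C1q values was not tested. In bulk RNA, fewer cells of a type and less RNA per cell cannot be told apart.

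The proteases of the C1 complex, C1ra and C1s1, stood at 343 ± 18.1 and 433 ± 9.27 CPM with vehicle and at 324 ± 11.2 and 426 ± 4.68 CPM with esculetin (SD, n = 3). Their log2 fold changes were -0.08 (-0.25 to 0.09) and -0.02 (-0.18 to 0.13), among the narrowest intervals of the complement genes. C4b, the source of the C4 cleavage products, ranged from 1135 to 1499.9 CPM with vehicle and from 1159 to 1781 CPM with esculetin (log2 fold change 0.15, -0.19 to 0.49). C2, the protease of the classical C3 convertase, had a log2 fold change of -0.02 (-0.34 to 0.30), and C1rl, a C1r-like protease, one of -0.01 (-0.19 to 0.17). C4b, C1ra and C1s1 have the near-identical copies C4a, C1rb and C1s2, and their values are uncertain to the extent that reads were split. Exon bases shared with other genes make up 42.8% of C2 and 40.2% of C1rl.

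In the alternative pathway, Cfd had few counts and met the expression filter only through the esculetin libraries, so its p-value is given as a description. Cfd (ENSMUSG00000061780, chr10:79726668-79728496, plus strand) encodes factor D, or adipsin, a protease made mostly by adipocytes. Its counts were 18, 8 and 0 in the vehicle libraries and 36, 24 and 36 in the esculetin libraries. The esculetin libraries lay above the vehicle libraries, with 0.691 to 1.12 CPM against at most 0.612 CPM, and vehicle library 3, with 0 counts, allows up to 0.109 CPM. The log2 fold change was 1.72 (95% interval 0.10 to 3.34, unadjusted p = 0.0397, adjusted p = 0.39, edgeR). After every library was thinned to the smallest total its log2 fold change was 1.66, with a p-value just above the threshold, and limma-voom gave a log2 fold change of 2.66. It passed in 2 of the 6 fits that left out 1 library. Its log2 fold change was 2.85 without vehicle library 1 (unadjusted p = 0.00654) and 1.17 without vehicle library 3 (unadjusted p = 0.0523), and its highest p-value was 0.107, without vehicle library 2. Of 4 adipocyte markers, Retn and Lep were at 0 in all libraries, and the summed level of the 4 was 0 in every vehicle library and at most 0.202 CPM in the esculetin libraries. Esculetin library 1, with 36 counts of Cfd, also had 0 counts of all 4 markers. The part of adipose RNA in the Cfd value was not tested.

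The other alternative pathway genes did not pass. Cfb (factor B, the protease of the alternative C3 convertase) was 7.66 ± 1.60 CPM with vehicle and 6.68 ± 1.23 CPM with esculetin (log2 fold change -0.20, -0.64 to 0.24). Exon bases shared with other genes make up 78.2% of Cfb, among them those of Gm20547, a read-through gene over C2 and Cfb that was listed at 0 counts in all 6 libraries. Whether reads on the shared bases were counted for Cfb is not given in the sources used here, so its level is uncertain. Cfp (properdin, which stabilises the alternative convertase and is made by leukocytes) had a log2 fold change of -0.03 (-0.41 to 0.34).

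None of the 7 regulators passed, and 6 of the 7 log2 fold changes were positive. Clu had the largest, 0.17 (95% interval -0.03 to 0.38, unadjusted p = 0.0905, and 0.0389 without the filter on low counts), followed by Cd59a, the membrane inhibitor of C9 polymerisation, at 0.17 (-0.03 to 0.36, unadjusted p = 0.0825). Serping1 was at 0.09 (-0.13 to 0.32), Cd55, which speeds the decay of convertases, at 0.05 (-0.27 to 0.38), and Vtn at 0.05 (-0.16 to 0.25). Cfi, the protease that degrades C3b and C4b, was at 0.02 (-0.25 to 0.28), and its cofactor C4bp at -0.01 (-0.23 to 0.21). The upper bounds of these intervals lay between 0.21 and 0.38, and increases within these bounds could not be told from no change with 3 libraries per group. Cd55 and Cd59a have close paralogues, so their counts may be shared.

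The receptors C3ar1 and C5ar1, which bind the anaphylatoxins C3a and C5a, were among the lowest complement genes. C3ar1 was 3.22 ± 0.991 CPM with vehicle and 2.81 ± 0.268 CPM with esculetin (log2 fold change -0.19, -0.73 to 0.35). C5ar1 was 0.890 ± 0.145 CPM with vehicle and 1.01 ± 0.278 CPM with esculetin (log2 fold change 0.19, -0.58 to 0.95). At these levels the intervals were the widest after those of Cfd and C7. Neutrophils carry both receptors and make properdin, and of 4 neutrophil markers Ly6g and Mpo were at 0 in all libraries. S100a9 passed as higher (log2 fold change 0.99, unadjusted p = 0.0444), where 6.53% of all genes tested passed. S100a8 did not pass (log2 fold change 0.29, unadjusted p = 0.627, edgeR), and its groups overlapped. The summed level of the 4 markers was 1.12 to 2.33 CPM with vehicle and 1.38 to 4.35 CPM with esculetin. Its part in the receptor and Cfp values was not tested.

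Further genes of the pathway were read from a list of 27, of which 23 could be tested. Among these, 1 passed the unadjusted threshold as higher and 1 as lower, beside 6.53% and 5.32% of all genes tested. Crp, the C-reactive protein gene whose product can bind C1q, stood at 439.9, 455 and 453 CPM in the vehicle libraries and at 555, 488 and 530.1 CPM in the esculetin libraries. All esculetin libraries were above the vehicle libraries (log2 fold change 0.22, SE 0.0773, unadjusted p = 0.0166, adjusted p = 0.31, edgeR). The groups were separated in the same direction for Cd59b and C1qbp, beside 9.2% of all genes tested. Neither passed in edgeR (log2 fold change 0.44, unadjusted p = 0.0572, and 0.11, unadjusted p = 0.140). Susd4, a membrane protein gene with complement control repeats, was 13.5 ± 0.984 CPM with vehicle and 10.9 ± 1.58 CPM with esculetin (log2 fold change -0.32, unadjusted p = 0.0391). The median log2 fold change of the 23 was 0.02.

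Of 10 transcription factors that act on liver complement promoters, 2 passed the unadjusted threshold, Cebpb, given above, and its relative Cebpd, both higher, beside 6.53% of all genes tested on that side. Cebpd was 3.31 ± 0.558 CPM with vehicle and 5.09 ± 1.82 CPM with esculetin (log2 fold change 0.62, SE 0.261, unadjusted p = 0.0395), and the groups overlapped. Cebpa was at -0.01 (-0.22 to 0.20) and Stat3 at 0.06 (-0.18 to 0.29). Of 16 acute phase proteins, plasma proteins of the liver that rise in inflammation, 13 had positive values, beside 6993 of 14433 genes tested. Of the 16, 1 passed as higher, Orm3 (log2 fold change 1.10, unadjusted p = 0.0354), beside 6.53% of all genes tested. Esculetin library 1 held the highest level of Orm3, at 9.26 CPM against 3.43 and 3.46 CPM in esculetin libraries 2 and 3, and it also held the highest level of C3.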

How the data were processed

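Libraries were prepared with the NEBNext Ultra kit and sequenced as 150-bp paired-end reads. The authors mapped reads to GRCm39 with HISAT 2.2.1 and deposited raw counts per gene from featureCounts; the submitters' notes also name mm10. The annotation release, the use of strand and the handling of multi-mapped reads are not given in the sources used here.

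Of 55357 identifiers, 54749 had a symbol in GENCODE M39. Genes were filtered with filterByExpr, normalized by TMM and tested with edgeR 4.0.16 (quasi-likelihood, R 4.3.3) without covariates, with Benjamini-Hochberg adjustment over 14433 genes. The study names limma, which was run here as an alternative (limma-voom 3.58.1), as was DESeq2 1.42.0. All 34 complement genes are named; full statistics were given for those with unadjusted p-values under 0.05 or groups that did not overlap, and for C3. The genes and lists were chosen with earlier results of these data known. No library was a copy of another, and the test was checked on simulated counts. P-values measure the spread between these libraries, and count limits cover counting error only.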

Additional observations from a re-analysis of the deposited data

How the results depend on the processing

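C6 and Mbl2 passed at an unadjusted p-value under 0.05, with the same sign, in every alternative run. With all 6 libraries, 260 of 270 single-gene log2 fold changes kept their direction and side of the threshold. With 1 library left out 158 of 204 did, while 26 reversed, 11 weakened and 9 strengthened. Without a filter on low counts, 5 complement genes were higher at the unadjusted threshold (5.28% of all genes tested) and 3 passed the adjusted one, which 2 passed in DESeq2. Both thinning to the smallest total and a minimum of 10 counts in every library left 1 gene past the p-value and a fold change over 1.5. Cfd and C7 gave no value under that minimum. Cfi turned to -0.0042 with total counts, and C1rl to 0.0052 and C4bp to 0.00020 without a filter; the cause was not tested.

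With 1 library left out, 1 to 4 complement genes were higher (4.84% to 6.37% of all genes tested) and 1 to 6 lower (3.61% to 6.01%), 1 to 3 also passed the fold change, 0 to 1 passed the adjusted threshold, and the median log2 fold change ran from -0.040 to 0.11 (0.11 without vehicle library 3). Genes whose log2 fold change crossed 0 were C1qb (-0.084 to 0.16), C1qc (-0.18 to 0.10), C1rl (-0.067 to 0.032), C2 (-0.15 to 0.15), C4b (-0.015 to 0.29), Fcna (-0.17 to 0.12), Colec11 (-0.10 to 0.11), Cfp (-0.17 to 0.17), C4bp (-0.10 to 0.056), Cfi (-0.10 to 0.13), Vtn (-0.0047 to 0.12), Cd55 (-0.084 to 0.15) and C3ar1 (-0.35 to 0.084).

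Libraries with the same replicate number came from different mice, and the correlations of same-numbered libraries were -0.11, -0.03 and 0.02, so the numbers did not pair them. Under the replicate block, 5 complement genes passed an unadjusted p-value under 0.05, the same genes as without it, and 10.4% of all genes tested did. The median log2 fold change of all genes was -0.03 with total counts.

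Precision is limited by 3 libraries per group and, for Cfd, C7 and the receptors, by few counts.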
